A study of Homo sapiens with 36 samples.

Results

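The genomic sites described here are places where the insulator protein CTCF and the cohesin subunit Rad21 were found together in BEAS-2B (B2B) cells, away from genes' start sites and from active chromatin. They were chosen by the following rule: a B2B CTCF peak on chromosomes 1 to 12 that overlapped a B2B Rad21 peak, lay more than 1 kb from every GENCODE start site, and was not overlapped by a B2B peak of H3K27ac, H3K4me3, Med1 or RNA polymerase II (pol II). Of 42595 CTCF peaks on these chromosomes, 15236 overlapped Rad21 and 10655 of those lay more than 1 kb from a start. A further 2194 fell away because they carried a mark of active chromatin, which left 8461 sites, or 19.9% of the CTCF peaks. All 61368 B2B CTCF peaks, on every sequence, made up the whole list.

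The ChIP-seq data came from A549, a human lung adenocarcinoma line, and in B2B, a human bronchial epithelial line without cancer. No treatment or genetic change was named for either line. Each target had 2 replicates, which were merged by the authors before peak calling, so every list is 1 pooled value without replicate error. CTCF and Rad21 were taken from B2B, and those of A549 were not analysed here. H3K27ac, H3K4me3, Med1, pol II and the AP-1 subunits JunB, Jun and JunD were used in both lines. Promoter peaks of H3K4me3 lay within 1 kb of a start of all 4 epithelial genes checked (EPCAM, CDH1, KRT8 and KRT18) and of both mesenchymal genes (VIM and CDH2) in each line. In A549, 1 of 3 basal airway genes (TP63) and 1 of 3 alveolar genes (SFTPC) had such a peak, and in B2B none of these 6 genes had one.

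CTCF is a zinc finger protein that binds a long, non-palindromic DNA motif, so each bound site has a direction. Cohesin is a ring-shaped complex, held shut by its subunit Rad21, that draws chromatin into loops and halts at CTCF. Loops are known to be held mostly between CTCF sites whose motifs point towards each other, called convergent sites, and such sites can keep an enhancer from acting on a gene on the other side. Med1 belongs to the Mediator complex at enhancers, H3K27ac marks active enhancers and promoters, and H3K4me3 marks promoters. The sites were compared with 2 other classes of B2B CTCF peaks on the same chromosomes. The first holds 18706 CTCF sites without Rad21 that meet the same rule on start sites and marks. The second holds 6775 CTCF-Rad21 sites that lie near a start or carry a B2B mark. Sites are not replicates of a cell line, and the 95% intervals given below cover counting error only.

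Sites among the 10 with the highest combined rank for CTCF and Rad21 show what the strongest members look like. The sequences of 7 of them are printed because they carry the directed CTCF motif that the results on cohesin position and loop direction turn on. Each was read from hg38 and is written from 5′ to 3′ along the motif, with the 20 bases of the best motif match in capitals and 20 bases on each side. The coordinates are those of the printed stretch. No match passed at another of the 10, between 38809798 and 38810161 of chromosome 5 inside a non-coding gene and 35.9 kb away from the start of OSMR.
MAP3K19 intron, chr2:135004401-135004460, plus strand: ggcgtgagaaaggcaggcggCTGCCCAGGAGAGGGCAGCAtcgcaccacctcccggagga
near PXYLP1, chr3:141192393-141192452, minus strand: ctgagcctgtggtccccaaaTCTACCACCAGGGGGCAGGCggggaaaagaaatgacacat
ARHGAP25 intron, chr2:68751893-68751952, plus strand: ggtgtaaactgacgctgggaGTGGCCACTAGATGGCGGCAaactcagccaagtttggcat
near CHCHD5, chr2:112600178-112600237, plus strand: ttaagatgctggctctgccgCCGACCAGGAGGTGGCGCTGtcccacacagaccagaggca
near CYBRD1, chr2:171574233-171574292, plus strand: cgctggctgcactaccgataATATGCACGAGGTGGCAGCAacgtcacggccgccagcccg
PDE4B intron, chr1:66242843-66242902, minus strand: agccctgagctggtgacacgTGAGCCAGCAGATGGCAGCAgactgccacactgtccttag
near ARHGAP29, chr1:94336047-94336106, minus strand: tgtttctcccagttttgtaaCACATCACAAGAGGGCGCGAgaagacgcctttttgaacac

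These 7 sites lay in introns of 3 genes (MAP3K19, ARHGAP25 and PDE4B), in non-coding genes near CHCHD5 and ARHGAP29, and between genes near PXYLP1 and CYBRD1. The site in MAP3K19 had a CTCF fold enrichment of 74.5 and a Rad21 fold enrichment of 55.9. Fold enrichment is the ratio of the reads piled up at a summit to the local background of the peak caller. The site 36.3 kb from the start of PXYLP1 had the highest CTCF fold enrichment of the 10, at 83.05, with 32.2 for Rad21. Of the 10 sites, those near PXYLP1, PDE4B and ARHGAP29 overlapped a Jun peak in B2B, with Jun fold enrichments of 9.67, 7.71 and 5.54. The site near PXYLP1 was the only one of the 10 with a Jun-family peak in A549, where JunB reached 6.65 and Jun 5.61. None of the 10 overlapped an A549 peak of H3K27ac, H3K4me3, Med1 or pol II.

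Over all 8461 sites the CTCF fold enrichment had a median of 20.9, and the middle 80% lay between 7.57 and 46.2. The Rad21 fold enrichment had a median of 8.75, with the middle 80% between 5.54 and 18.7. The median CTCF fold enrichment was 8.29 at CTCF sites without Rad21 and 7.52 at the CTCF-Rad21 sites near a start or with a mark. These heights entered the choice of the sites through the peak lists and are given as a description. The pileup solved from the deposited values had a median of 83 reads for CTCF and 18 reads for Rad21. The Rad21 pileups were uneven, since the upper 10% of the sites stood above 101 reads. CTCF and Rad21 heights were almost unrelated over the sites, with a Spearman rho of 0.0504 across the 8461 sites, which share the same 2 lists. A CTCF peak was 270 bp wide at the median and a Rad21 peak 258 bp, and the summits lay 30 bp apart at the median. They lay within 50 bp of each other at 71.6% of the sites. The sites fell on 8447 different Rad21 peaks, and 27 sites shared their Rad21 peak with another site.

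The rule left some sites close to its limits. The 3 sites just past the limit of 1 kb lay 1001, 1007 and 1008 bp from a start, with CTCF fold enrichments of 31.1, 14.1 and 8.91. The 3 CTCF-Rad21 peaks just short of it lay 998, 999 and 999 bp away, with CTCF fold enrichments of 7.57, 4.26 and 39.1. The CTCF and Rad21 peaks overlapped by less than 50 bp at 60 sites. A B2B mark lay within 100 bp of 90 sites and within 1 kb of 405 sites. The sites therefore differ in how far they lie from active chromatin in B2B.

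The sites were spread over all 12 chromosomes. Their density ranged from 3.20 per Mb on chromosome 4, which also had the fewest protein-coding genes per Mb of the 12 (3.98), to 4.76 per Mb on chromosome 1, which had 8.28 genes per Mb. Chromosome 11, with the most genes per Mb (9.75), had 4.35 sites per Mb. Neighbouring sites were 122 kb apart at the median, and the middle 80% of gaps lay between 12.7 and 514 kb. The densest stretches of 1 Mb held 16 sites each and lay on chromosome 1 from 201000001 to 202000000 and on chromosome 2 from 20000001 to 21000000. The summit lay in a protein-coding gene at 48.5% of the sites (95% Wilson interval 47.4 to 49.6%), in a non-coding gene alone at 12.7% (11.98 to 13.4%) and between genes at 38.8% (37.8 to 39.9%). Exons of any gene held 6.24% of the summits (5.74 to 6.78%). The median distance to the nearest start site was 10417 bp.

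Next, the sequence under the CTCF summits was examined. A CTCF matrix of 20 positions was learned from exact matches to the 12-letter core CCANNAGNNGGC, on both strands, within 50 bp of the summits. The matrix was learned on odd chromosomes and applied to even ones, and the reverse, at a score that 1% of equally long windows lying 2 kb away passed. The motif was found at 6181 sites, or 73.1% (72.1 to 74.0%). It was found at 39.0% of the CTCF sites without Rad21 (38.3 to 39.7%) and at 41.2% of the CTCF-Rad21 sites near a start or with a mark (40.01 to 42.4%). The exact core alone lay at 31.1% of the sites, against 0.402% of the windows 2 kb away. The share with the motif rose from 57.7% (54.4 to 61.02%) in the decile of the sites with the lowest CTCF fold enrichment to 78.7% (75.8 to 81.3%) in the decile with the highest. The Rad21 fold enrichment of these deciles stayed between medians of 8.43 and 10.001. The plot of the motif share by CTCF strength shows that most of this rise lay within the lowest 3 deciles.

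**Figure D1:**
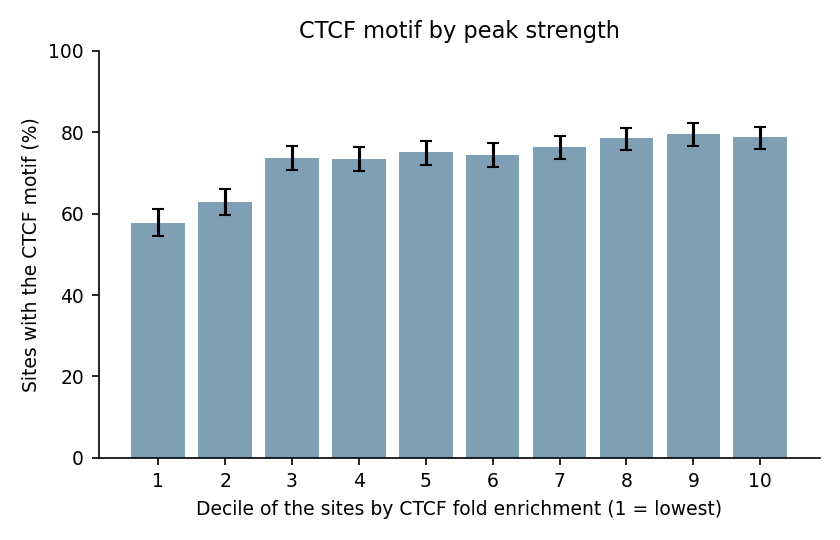
Share of the sites with the CTCF motif (y axis, %) in each decile of the sites by CTCF fold enrichment (x axis), with 95% Wilson intervals as error bars. The share was 57.7% in the lowest decile, 73.8% in the third and 78.7% in the highest.

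CTCF fold enrichment and the motif went together across the other CTCF sites as well. In the lowest quartile of the sites by CTCF fold enrichment, up to 12.3, the motif lay at 62.9% of the sites and at 28.9% of the CTCF sites without Rad21 of the same strength, a difference of 33.99 percentage points (95% Newcombe interval 31.8 to 36.1). In the highest quartile, from 33.1, the shares were 79.1% and 76.3%, and the interval of the difference held 0 (2.76 points, -0.713 to 6.42). Between CTCF peaks of the highest fold enrichment with and without Rad21, a difference in the motif was therefore not detectable.

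The search fixed most letters of the core, so base shares are given for positions that it left free. They come from a matrix re-estimated once from the matches and are counted from 1 at the 5′ end. Position 12 held A in 51.1% and G in 48.4% of the matches. Position 13 held G in 49.1% and T in 48.03%. Position 8 held C in 61.9% and G in 32.2%. The motif contained CG, the step at which DNA is methylated, at 33.3% of the 6181 sites with a match, and the median CTCF fold enrichment was 22.1 with and 21.9 without it.

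Of the 6181 sites with a match, 314 had the same 20 bases as at least 1 other site. The most frequent sequence occurred at 27 sites on 10 chromosomes. A close relative of it, printed as an example of 1 motif sequence at many places, occurred at 8 sites on chromosomes 1, 3, 6, 9, 10 and 11, where the CTCF fold enrichment ranged from 20.9 to 57.4.
repeated motif: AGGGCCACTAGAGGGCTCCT

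The position of cohesin relative to the motif was then measured, which the rule did not use. At 3071 sites the motif lay on the plus strand and at 3110 on the minus strand. Where it lay on the plus strand, the Rad21 summit was shifted to higher coordinates, with a median of 17.5 bp from the motif centre and the middle 50% between -8.5 and 42.5 bp. Where it lay on the minus strand, the Rad21 summit was shifted the other way, with a median of -21 bp and the middle 50% between -47.2 and 4.5 bp. The shift was thus towards the 3′ end of the motif on both strands. Read along the motif, the Rad21 summit lay on the 3′ side at 69.8% of the sites (68.7 to 70.97%), with a median shift of 19.5 bp. The CTCF summit itself was shifted by 7.5 bp to the same side, and lay there at 72.9% of the sites (71.8 to 73.99%). Measured from the CTCF summit in place of the motif, the Rad21 summit still lay on the 3′ side at 62.6% (61.4 to 63.8%), with a median of 12 bp.

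**Figure D2:**
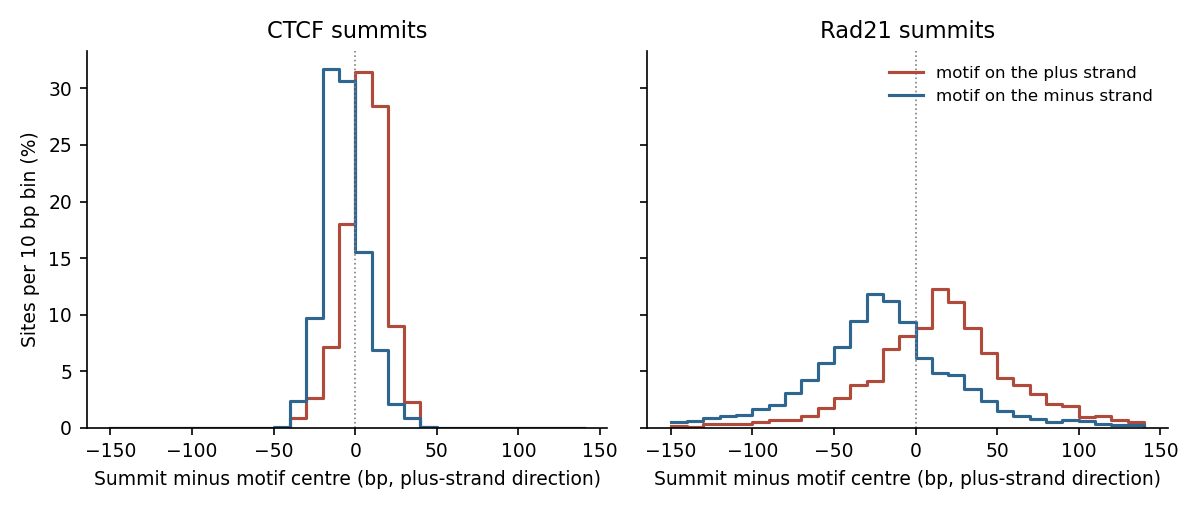
Distance of the CTCF summit (left) and the Rad21 summit (right) from the centre of the CTCF motif (x axis, bp in the plus-strand direction) for 3071 sites with the motif on the plus strand and 3110 with it on the minus strand. The y axis gives the share of sites per bin of 10 bp. Sites beyond the ends of the axis are counted in the shares but not drawn. The Rad21 curves of the strands roughly mirror each other, with medians of 17.5 and -21 bp, and are broader than the CTCF curves.

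The side on which Rad21 lay was clearer at stronger cohesin peaks. In the quartile of the sites with the lowest Rad21 fold enrichment, 65.2% of the Rad21 summits lay on the 3′ side (62.8 to 67.4%), and in the highest quartile 74.5% did (72.2 to 76.6%). The median shift was between 17.5 and 20.5 bp in all 4 quartiles. The CTCF-Rad21 sites near a start or with a mark showed the same side at 69.9% (68.2 to 71.6%), which differed from the sites described here by -0.0494 percentage points (-2.08 to 2.02). The position of cohesin was therefore not particular to sites away from active chromatin.

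Because each motif has a direction, neighbouring sites could be sorted into convergent, divergent and tandem pairs. There were 4566 pairs of neighbouring sites with the motif at both. Over all distances, 25.4% were convergent (24.2 to 26.7%), 27.5% divergent (26.2 to 28.8%) and 47.1% tandem (45.6 to 48.5%), where strands drawn independently would give 25% convergent pairs. The overall share hid a dependence on distance. Among 373 pairs within 10 kb, 5.63% were convergent (3.71 to 8.45%) and 34.9% divergent (30.2 to 39.8%). Between 10 and 50 kb, 14.1% were convergent (12.03 to 16.5%), and between 50 and 100 kb, 20.6% (17.9 to 23.6%). Between 100 and 250 kb the order turned, with 31.2% convergent (28.8 to 33.8%) and 23.3% divergent (21.1 to 25.6%). Between 250 and 500 kb, 36.99% were convergent (33.5 to 40.7%) and 18.8% divergent (16.1 to 21.9%). Tandem pairs fell from 59.5% within 10 kb to between 40.1% and 48.1% in the other distance classes.

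**Figure D3:**
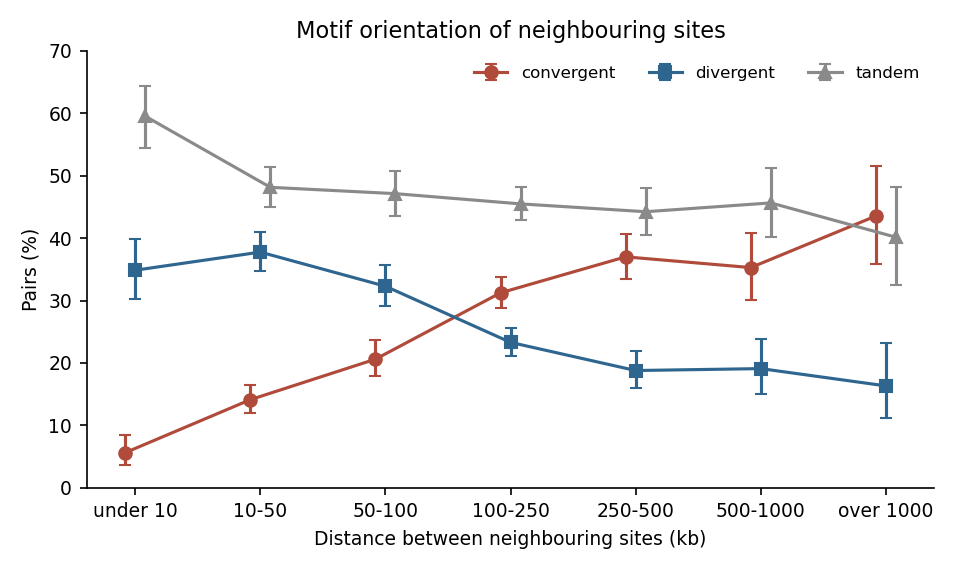
Share of convergent, divergent and tandem pairs (y axis, %) among neighbouring sites with the motif at both, by the distance between the sites (x axis, kb, classes of unequal width), with 95% Wilson intervals. Convergent pairs were 5.63% within 10 kb and 36.99% between 250 and 500 kb, while divergent pairs were 34.9% and 18.8%.

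The same count in the other classes of CTCF peaks showed whether the pattern went with CTCF alone. Over distances above 100 kb, convergent pairs made up 34.1% of neighbours among the sites described here (32.2 to 35.9%). They made up 25.1% among neighbouring CTCF sites without Rad21 (22.8 to 27.6%), a difference of 8.92 points (5.87 to 11.9). Among neighbouring CTCF-Rad21 sites near a start or with a mark they made up 24.9% (21.6 to 28.5%), a difference of 9.18 points (5.11 to 12.99). Within 50 kb the difference was the other way, with 11.7% convergent pairs among the sites described here and 20.7% among CTCF sites without Rad21, a difference of -9.04 points (-11.8 to -6.23). Both differences of orientation were thus larger than counting error allows. Of the 373 close pairs, 2 had the same 20 bases at both sites. Pairs within a class may have CTCF sites of another class between them. The dependence on distance was also present with other definitions of the motif, since the convergent share above 100 kb lay between 33.8% and 34.6% and that within 50 kb between 11.2% and 14.96% under all 4 definitions tried.

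What the convergent and divergent pairs enclosed was compared in all 7 distance classes. A start of a protein-coding gene lay between 37.1% of the 132 convergent and 23.8% of the 353 divergent pairs 10 to 50 kb apart, a difference of 13.3 points (4.24 to 22.8). The median distances in this class were 28.5 and 25.8 kb. Between 500 and 1000 kb, such a start lay between 94.5% of the 109 convergent and 79.7% of the 59 divergent pairs, a difference of 14.8 points (4.60 to 27.1). In the other 5 classes the interval of the difference held 0. Between 100 and 250 kb, the class with the most pairs, the shares were 78.4% and 78.3% (0.0408 points, -5.88 to 6.15). A B2B H3K4me3 peak lay between 75.3% of the convergent and 70.7% of the divergent pairs of that class (4.60 points, -1.84 to 11.1), and between 72.3% and 80.8% from 250 to 500 kb (-8.50 points, -16.7 to 0.678). The intervals for H3K4me3 and for H3K27ac held 0 in all 7 classes. These 21 intervals were not adjusted for their number.

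Around 14 genes of known domain structure or of interest in lung cancer, the nearest site on each side was listed. The distance between the flanking sites ranged from 9.26 kb at HOXD13 to 1191 kb at PCDHA1. The PCDHA1 interval held 23 other CTCF-Rad21 sites, which lay near a start or carried a mark. HBB, the beta-globin gene, lay between a plus-strand site 599 kb away on the low-coordinate side and a minus-strand site 141 kb away on the high-coordinate side, which is a convergent pair. EGFR, the growth factor receptor gene mutated in many lung adenocarcinomas, lay between a minus-strand site 179 kb away and a plus-strand site 68.5 kb away, which is a divergent pair. Their sequences are printed with the strand of each motif, which gives the opposite directions. Each is written along its own motif, so the strand given is what differs.
low-coordinate side of HBB, chr11:4626360-4626419, plus strand: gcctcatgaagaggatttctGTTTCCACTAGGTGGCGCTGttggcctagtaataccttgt
high-coordinate side of HBB, chr11:5370041-5370100, minus strand: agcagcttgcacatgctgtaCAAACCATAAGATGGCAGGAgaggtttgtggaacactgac
low-coordinate side of EGFR, chr7:54839773-54839832, minus strand: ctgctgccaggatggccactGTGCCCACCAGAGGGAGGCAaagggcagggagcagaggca
high-coordinate side of EGFR, chr7:55280094-55280153, plus strand: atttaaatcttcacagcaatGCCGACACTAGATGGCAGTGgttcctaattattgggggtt

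The HBB sites had CTCF fold enrichments of 27.1 and 25.1 and Rad21 fold enrichments of 9.04 and 17.5, and overlapped no Jun-family peak of either line. The low-coordinate EGFR site, between genes 79.8 kb from the start of SEC61G, had 17.6 for CTCF and 23.3 for Rad21 and overlapped an A549 JunB peak with a fold enrichment of 5.09. The high-coordinate one had 28.4 and 6.46 and no Jun-family peak. Another 6 CTCF-Rad21 sites near a start or with a mark lay within the EGFR interval and 4 within the HBB interval, and 1 further unmarked site lay within EGFR itself. TERT, the telomerase gene, lay between plus-strand sites 44.04 kb and 185 kb away. At the other 11 genes at least 1 of the flanking sites had no match to the motif. With the re-estimated matrix, this was so at 9 genes, and MET became a second gene with convergent flanking sites.

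The sites flanking developmental and tumour genes differed in strength and in their state in A549. The plus-strand site in an intron of MTAP, 154 kb from CDKN2A, the tumour suppressor gene of the cell cycle, had the highest Rad21 fold enrichment of all the flanking sites, at 36.7, with 48.03 for CTCF. A plus-strand site 2.196 kb from SOX2, a stem cell factor gene, had 23.9 for CTCF and 7.18 for Rad21 and no A549 mark. The sites next to HOXA9 and HOXD13, genes that pattern the body axis, all overlapped A549 H3K27ac and H3K4me3. At the HOXD13 site on the high-coordinate side the A549 H3K27ac fold enrichment was 43.1, and at the HOXA9 site on the low-coordinate side it was 26.7. SHH, the gene of the signal Sonic hedgehog, had flanking sites 2.85 and 2.97 kb away with A549 H3K27ac fold enrichments of 16.9 and 7.19. The flanking site at PCDHA1 on the high-coordinate side, over an exon in DIAPH1, had a CTCF fold enrichment of 80.4 and peaks of all 3 Jun-family proteins in both lines.

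Whether AP-1 lay at the sites was asked next, since the Jun-family lists did not enter the rule. A Jun-family peak of B2B overlapped 794 sites, or 9.38% (8.78 to 10.02%), whereas 26.6% of all B2B CTCF peaks were overlapped. JunB overlapped 2.52% of the sites in B2B, Jun 8.90% and JunD 1.87%, against 9.41%, 26.3% and 6.77% of all CTCF peaks. In A549 a Jun-family peak overlapped 595 sites, or 7.03% (6.51 to 7.60%), against 18% of all CTCF peaks. JunB overlapped 4.50% of the sites in A549, Jun 5.80% and JunD 1.15%, against 13.1%, 15.5% and 5.04% of all CTCF peaks. Jun-family peaks were thus less frequent at these sites than at CTCF peaks as a whole in each of the 6 lists. CTCF peaks as a whole include those near a start or with a B2B mark, which the rule left out. The part of that choice in the lower shares was not tested.

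**Figure D4:**
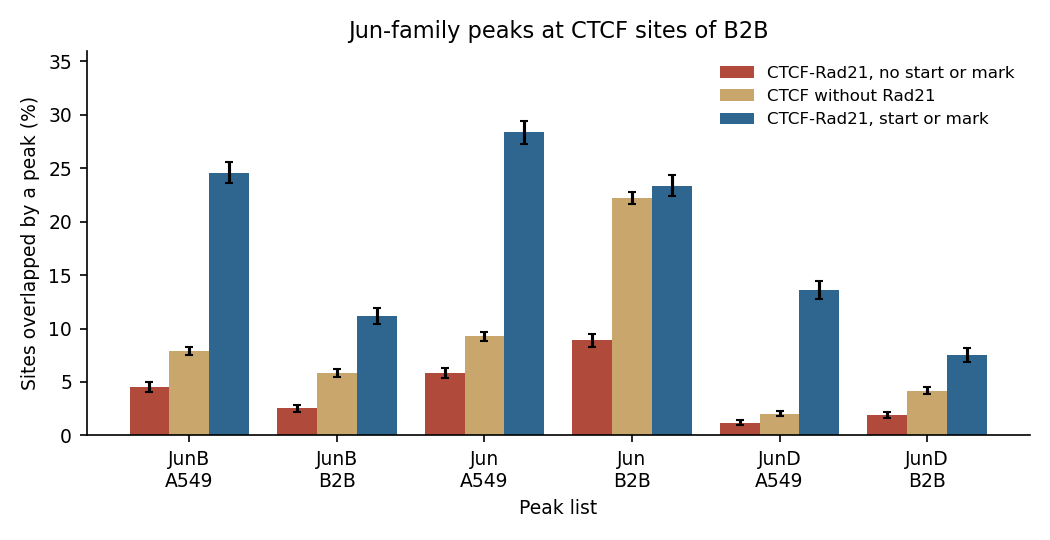
Share of sites overlapped by a Jun-family peak (y axis, %) for each protein and line (x axis) at the sites described here, at CTCF sites without Rad21 and at CTCF-Rad21 sites near a start or with a B2B mark, with 95% Wilson intervals. In each of the 6 lists the first class had the lowest share, from 1.15% for JunD in A549 to 8.90% for Jun in B2B.

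The CTCF sites without Rad21 carried AP-1 more often although they meet the same rule on starts and marks. A Jun-family peak of B2B overlapped 22.6% of them (21.99 to 23.2%), and the sites with Rad21 were 13.2 points lower (12.3 to 14.1 points lower). In A549 the share without Rad21 was 10.6% (10.2 to 11.1%), a difference of -3.61 points (-4.30 to -2.89). The CTCF-Rad21 sites near a start or with a mark had 23.5% in B2B (22.5 to 24.5%) and 35.1% in A549 (33.9 to 36.2%). The difference from CTCF sites without Rad21 depended on the fold enrichment of the CTCF peak. In the lowest quartile by CTCF fold enrichment, 10.3% of the sites and 28.3% of the CTCF sites without Rad21 had a Jun-family peak in B2B, a difference of -18.0 points (-19.4 to -16.4). In the second quartile the shares were 4.28% and 9.93% (-5.65 points, -7.01 to -4.26), and in the third 7.71% and 6.98% (0.723 points, -0.962 to 2.37). In the highest quartile the sites with Rad21 had the higher share, at 15.1% against 8.84% (6.29 points, 3.56 to 8.75). The direction of the difference therefore turned between CTCF peaks of low and high fold enrichment. Fold enrichment also depends on the caller's background. At the sites with Rad21 the median CTCF background was 2.64 times the lowest in the lowest quartile and 1 times in the highest. The part of background in this turn was not tested. In A549 the lowest 2 quartiles differed by -4.47 points (-5.68 to -3.13) and -1.76 points (-3.01 to -0.465), and the intervals of the highest 2 quartiles held 0 (0.611 and 2.201 points).

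The lines were compared at the same 8461 sites. JunB was more frequent in A549 by 1.99 points (paired interval 1.57 to 2.41), while Jun was more frequent in B2B, by -3.10 points as A549 minus B2B (-3.67 to -2.53), and so was JunD (-0.721 points, -1.03 to -0.428). When the lists were cut to equal length the JunB difference reversed to -0.969 points, and that for Jun shrank to -0.662 points. All sites were called on B2B lists, and the part of that choice in these differences was not tested. Of the 381 sites with JunB in A549, 34.9% also had it in B2B, and of the 213 with JunB in B2B, 62.4% also had it in A549. At CTCF sites without Rad21 these shares were 46.3% and 62.5%, and at CTCF-Rad21 sites near a start or with a mark 30.5% and 67.4%. For Jun the shared sites numbered 318, which were 64.8% of the 491 in A549 and 42.2% of the 753 in B2B. The shares for Jun were 85.3% and 35.5% without Rad21, and 50.2% and 60.9% near a start or with a mark. In B2B, Jun was the only member of the family at 67.0% of the 794 bound sites, and all 3 proteins lay together at 13.6%. In A549, Jun alone made up 34.3% of the 595 bound sites and JunB with Jun 33.9%. The lists differed in length, with 32978 Jun, 6318 JunB and 6206 JunD peaks in B2B. In A549 they held 24939 Jun, 19926 JunB and 6438 JunD peaks. The part of list length in these shared and combined percentages was not tested.

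AP-1 binds the letters TGANTCA, which read the same on both strands. They lay within 50 bp of the CTCF summit at 3.06% of the sites (2.71 to 3.45%) and in 3.20% of the windows 2 kb away (2.94 to 3.47%). At CTCF sites without Rad21 they lay at 8.03% (7.65 to 8.43%). Of the sites with a Jun-family peak in B2B, 13.98% had the letters there (11.7 to 16.6%), and of those without, 1.93% (1.65 to 2.26%). Within 50 bp of the Jun summit itself, the letters were present at 35.6% of the Jun peaks at sites in B2B and at 47.7% of all B2B Jun peaks. For JunB in B2B the shares were 60.6% and 59.7%, and for JunD 63.3% and 51.2%. In A549 JunB had 57.0% and 53.0%, Jun 43.99% and 51.0%, and JunD 51.5% and 40.6%. The Jun summits lay 58 bp from the CTCF summit at the median in B2B and 57 bp in A549.

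The Jun peaks at strong and weak CTCF sites of B2B were not alike. In the lowest quartile by CTCF fold enrichment, 204 sites had a Jun peak, with a median Jun fold enrichment of 16.2. Of these peaks 42.2% had TGANTCA at the summit (35.6 to 49.02%), and 13.7% of the 204 sites had the CTCF motif. In the highest quartile, 299 sites had a Jun peak, with a median Jun fold enrichment of 6.98. Of these 25.8% had TGANTCA (21.1 to 31.0%), and 77.6% of the 299 sites had the CTCF motif. Jun peaks in the highest quartile were thus lower, with fewer AP-1 letters, than those in the lowest. At sites with a Jun peak the CTCF motif was seldom found in the lowest quartile, although 62.9% of all its sites had it. In quartiles 2 and 3, TGANTCA lay at 44.9% and 40.4% of the Jun peaks, so its share was lower in the highest quartile only. The median Jun fold enrichments of quartiles 2 and 3 were 8.78 and 8.45. The CTCF motif lay at 51.7% and 65.2% of their sites with Jun. Over all sites the CTCF motif was found at 54.6% of those with Jun in B2B and 74.9% of those without. The median CTCF fold enrichment was 26.7 with Jun in B2B and 20.5 without.

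The 3 highest Jun peaks of B2B at the sites lay where no CTCF motif was found. The site with the highest Jun fold enrichment in B2B, 67.8, lay in a non-coding gene on chromosome 5 (27241855 to 27242437), 121 kb from the start of CDH9, and had 12.5 in A549. The next lay between genes 30.7 kb from the start of FILIP1, with 67.3 in B2B and 23.5 in A549, and in an intron of TGFBR3, the gene of a TGF-beta co-receptor, with 66.996 and 9.83. In A549 the highest Jun fold enrichment, 79.8, lay between genes 150 kb from the start of ITGB1, an integrin gene, at a site without any Jun-family peak in B2B. That site also overlapped A549 peaks of H3K27ac (8.92), Med1 (10.8) and pol II (11.5). The second, 76.9, lay inside a non-coding gene and 20.6 kb away from CX3CR1, a chemokine receptor gene, with 63.3 in B2B, and the third, 66.8, lay 314 kb from the start of PIK3C2G, with 18.5 in B2B.

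Finally, the state of the sites in A549 was examined, none of which carried a mark in B2B by the rule. An A549 peak of H3K27ac, H3K4me3, Med1 or pol II overlapped 1178 sites, or 13.9% (13.2 to 14.7%), against 26.7% of all B2B CTCF peaks. H3K27ac overlapped 6.78% of the sites, H3K4me3 8.56%, Med1 2.15% and pol II 5.46%. The shares of all CTCF peaks were 17.2% for H3K27ac, 18.4% for H3K4me3, 12.2% for Med1 and 20% for pol II. Most sites therefore had none of the 4 marks in either line. Of the 1178 sites, 680 had 1 of the 4 marks, among them 334 with H3K4me3 alone and 178 with H3K27ac alone, and 44 had all 4.

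**Figure D5:**
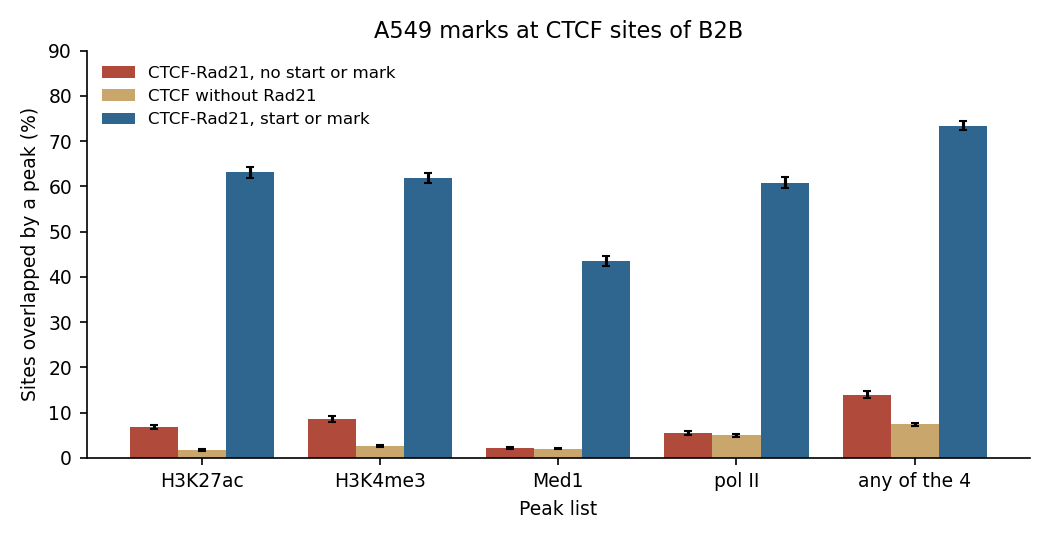
Share of sites overlapped by an A549 peak of each mark (y axis, %) at the sites described here, at CTCF sites without Rad21 and at CTCF-Rad21 sites near a start or with a B2B mark, with 95% Wilson intervals. The first class had 8.56% for H3K4me3 and 6.78% for H3K27ac, against 2.52% and 1.70% in the second.

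Sites with Rad21 carried the A549 histone marks more often than CTCF sites without it. The difference was 5.08 points for H3K27ac (4.53 to 5.67) and 6.03 points for H3K4me3 (5.41 to 6.69). For Med1 it was 0.0982 points (-0.260 to 0.482) and for pol II 0.51 points (-0.0539 to 1.098), so that no difference was detectable for these. For H3K27ac the difference was 15.996 points in the lowest quartile by CTCF fold enrichment (14.4 to 17.7) and 0.199 points in the highest (-0.845 to 0.897). The 574 sites with A549 H3K27ac had a median CTCF fold enrichment of 9.07, although their CTCF pileup was 160 reads at the median, with a caller's CTCF background in B2B of 9.92 times the lowest of its list. Over all 1178 sites with an A549 mark the pileup was 139 reads and the background 4.63 times the lowest. At the 7283 sites without an A549 mark the pileup was 76 reads and the background 1.00 times the lowest. The sites marked in A549 thus had a higher median B2B background. The part of this in the missing B2B calls was not tested. A B2B mark lay within 1 kb of 10.8% of the marked sites and 3.82% of the others.

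AP-1 went with the marks within A549. A Jun-family peak of A549 overlapped 18.8% of the sites with an A549 mark and 5.12% of those without, a difference of 13.7 points (11.5 to 16.1). At the 182 sites with Med1 the share was 52.2%, against 6.04% at the others (46.2 points, 38.9 to 53.3), and at the 462 with pol II it was 30.3% against 5.69%. The Jun-family peaks of B2B were more frequent at the sites with A549 Med1 as well, at 31.9% against 8.89%, but less frequent at those with A549 H3K27ac, at 5.05% against 9.70% (-4.65 points, -6.30 to -2.44). The CTCF motif was found at 72.2% of the marked and 73.2% of the unmarked sites, and the interval of the difference held 0 (-1.04 points, -3.86 to 1.65). By single marks, the motif was less frequent at the sites with A549 Med1, at 64.8% against 73.2% (-8.40 points, -15.6 to -1.76), and the intervals for H3K27ac, H3K4me3 and pol II held 0.

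Of the 83 sites with both H3K27ac and Med1 in A549, the 3 with the highest H3K27ac lay between genes 38.8 kb from the start of ARHGEF4 (95.3 for H3K27ac and 10.2 for Med1), inside a non-coding gene and 83.9 kb away from MKI67 (95.1 and 8.16), and between genes 2.58 kb from the start of INHBB, the gene of an activin subunit (82.2 and 4.71). H3K4me3 and pol II of A549 overlapped all 3 as well. At these sites the B2B Rad21 fold enrichment was 12.8, 7.96 and 21.0, above the CTCF fold enrichment of 5.45, 5.10 and 7.44. Only the site near MKI67 had the CTCF motif. Its sequence is printed with that of the ITGB1 site, because these are sites with the motif that carried active marks in A549 and none in B2B.
near ITGB1, chr10:33155981-33156040, minus strand: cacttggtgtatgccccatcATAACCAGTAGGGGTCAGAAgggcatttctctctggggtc
near MKI67, chr10:128210315-128210374, plus strand: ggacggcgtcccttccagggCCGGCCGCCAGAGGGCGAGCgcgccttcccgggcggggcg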

How the data were processed

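The authors aligned ChIP-seq reads to hg38 with Bowtie2 2.4.4, removed duplicates, merged the 2 replicates of each target, processed them with SAMtools 1.13 and called peaks with MACS2 2.2.7.1. The caller's options and its control are not given in the sources used here. The 4 libraries of input chromatin entered no step taken here, and whether they served as the caller's control is unknown. Each of the 16 lists is a deposited narrowPeak table. The score deposited for each peak was not used. The fold enrichment of each peak is the ratio of pileup to local background deposited by the authors, and its p-value and q-value were deposited as −log10. The position of the summit within the peak was deposited as well.

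Chromosomes 1 to 12 were used, since some lists end on later chromosomes. Peaks were intersected with a minimum overlap of 1 bp in Python 3.11.15 with pandas 2.3.3 and NumPy 2.4.6, start sites came from GENCODE release 44, and sequence was read with pysam 0.24.0. Where several peaks overlapped a site, the one with the highest fold enrichment was taken. Pileups were solved from fold enrichment, with a pseudocount of 1, and p-value, and 100% came within 0.05 of a whole number. The number of reads per library is unknown. Shares have Wilson intervals and differences Newcombe intervals, paired where the same sites were scored in both lines. No test over samples was possible. The interval and motif code was tested on simulated data.

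The sites, lists and comparisons were chosen with earlier results of these data known. Named sites are the 10 with the highest mean rank by CTCF and Rad21, the 3 with the highest Jun in each line, the 3 with A549 H3K27ac and Med1 and the highest H3K27ac, and those flanking 14 genes. Some of these are not reported here. The gene given is the protein-coding gene that holds the site or has the nearest start. The sites on repeated motifs were singled out after their values were seen. Plots were drawn with Matplotlib 3.10.9.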

Additional observations from a re-analysis of the deposited data

Results flagged for a closer look

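The sites were taken from chromosomes 1 to 12, and the peaks of the other chromosomes entered no comparison. On chromosomes 13 to 22, X and Y, 3572 of 18630 B2B CTCF peaks (19.2%) overlapped Rad21, lay more than 1 kb from a start and had no B2B peak of H3K27ac, H3K4me3 or pol II. Med1 was left out of this count because its lists do not reach these chromosomes in full. The floor set for this count was only 3 peaks, so passing it says nothing about how these chromosomes compare. With the same 3 marks, chromosomes 1 to 12 held 8869 such sites (20.8%).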

How the results depend on the processing

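No paired analysis was possible because replicates were merged before peak calling. The number of sites, the 3 Jun-family differences between the lines, the difference from CTCF sites without Rad21, and the shares with an A549 mark, with the motif, with Rad21 on the 3′ side and of convergent pairs were recomputed under other settings. Of these, 54 of 71 values stayed within the interval of the value reported, or within 1.5 times for the number of sites. One reversed, since with Jun-family lists of equal length JunB at the sites was -0.969 points (A549 minus B2B). That setting gave -0.662 points for Jun. A Jun-family summit within 100 bp of the CTCF summit gave 1.24 points for JunB, -2.36 for Jun and -10.4 for the Jun family of B2B against CTCF sites without Rad21. A −log10 q of at least 5 gave -2.36 points for Jun and -0.395 for JunD. With no B2B mark within 1 kb, the difference from CTCF sites without Rad21 was -11.9 points and the share with an A549 mark 13.05%. The share with an A549 mark was 12.9% with starts 3 kb away and 15.4% with starts of protein-coding transcripts alone. Without Med1 in the rule, chosen after seeing the data, it was 15.4% and the difference from CTCF sites without Rad21 was -14.1 points. The motif share moved most, to 89.2% at a threshold of 5%, 31.1% for the exact core and 84.4% with the re-estimated matrix, which was also added after seeing the data. The Rad21 summit lay on the 3′ side at 62.6% from the CTCF summit. The cause of these changes was not tested. With 1 pooled list per target, the spread between replicates and the reads per library limit every value, and neither is known.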
